A study of Homo sapiens with 2 samples.

Results

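The EBF transcription factor family has 4 members, EBF1, EBF2, EBF3 and EBF4, taken by symbol from the 61487 features of both libraries, where each symbol named 1 feature. The members were proposed with earlier results of these data known, so their FKO over WT values and their values by neuron class are a description without a test. The study asked whether FOXA2, a forkhead factor of the floor plate, is needed to make human serotonin neurons (SNs). Both groups were WA09 (H9) human embryonic stem cells with EGFP knocked into TPH2, the gene of the neuronal enzyme for serotonin synthesis. They were differentiated into SNs, sorted for EGFP at day 42 and read as 10x 3' v3 single-cell libraries. The WT group carried the reporter alone. The FKO group carried the reporter on the FKO2 background, a picked FOXA2 knockout clone with an indel and a frameshift left by end joining. The dose of purmorphamine, an agonist of SHH signaling, is not given for the sorted cells in the sources used here. For a staining at day 42 the paper names a low dose for WT cells and a high dose for FKO cells. If the sorted cells were treated likewise, dose and genotype cannot be told apart. There was 1 library per group and no replicate, so no test was made, and all 95% intervals (exact Poisson for levels, exact conditional binomial for ratios, Clopper-Pearson for shares) cover counting error only.

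EBF proteins, first known as early B cell factors, bind DNA as dimers through a zinc-coordinating domain and a helix-loop-helix region. EBF1 is a determinant of B cell fate, and EBF2 is known from brown fat and migrating neurons. In the developing nervous system EBF genes act after the proneural bHLH genes, where they take part in the differentiation, migration and axon growth of young neurons.

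The WT library held 11052 barcodes with 123064653 UMIs (unique molecular identifiers), and the FKO library 8806 barcodes with 70588747 UMIs, with 21 barcode sequences in both. After filters on UMIs, genes, mitochondrial share and likely doublets, 5746 WT cells with a median of 12440 UMIs and 6979 FKO cells with a median of 6936 UMIs were kept. Levels are CPM, UMIs of a gene scaled to a common library total, pooled over the cells of a class. Between the libraries depth and RNA quality also differed, with a median mitochondrial share of 7.82% in WT and 5.33% in FKO, and their part in the differences was not tested.

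FOXA2, the targeted gene, went against the label. Its 333 UMIs in the library labelled WT made 4.35 CPM, and its 1301 UMIs in that labelled FKO made 22.4 CPM. The FKO over WT log2 ratio was 2.37 (2.19 to 2.55). A 3' tag count does not show an indel, so this level says nothing of the edit itself, and WT and FKO below stand for the libraries labelled so. Of the other 4 floor plate markers, SHH (-1.11, -1.37 to -0.84) and CORIN (-2.06, -2.54 to -1.61) were lower in FKO, SPON1 (-0.08, -0.17 to 0.02) was level and NTN1 (1.12, 0.95 to 1.30) was higher. When only cells with at most 5% mitochondrial UMIs were taken, 338 WT and 2891 FKO cells were left. Among them the FOXA2 log2 ratio was 0.15 (-0.28 to 0.60).

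A neuron was a kept cell with at least 3 of 6 neuron markers and few cycling or collagen UMIs. FEV-positive neurons, with at least 3 UMIs of the serotonergic factor FEV and under 2 of SLC17A6, made up 5309 WT cells (92.4%) and 5408 FKO cells (77.5%). SLC17A6-positive neurons, with at least 2 UMIs of this vesicular glutamate transporter (VGLUT2) and under 3 of FEV, were rare, with 13 WT cells and 64 FKO cells. The 8 serotonergic markers summed to 2907 CPM (WT) and 2644 CPM (FKO) in FEV-positive neurons, against 224 and 213 CPM in SLC17A6-positive neurons. FEV, which sets the limits of both classes, was the most abundant of them in each, so part of this contrast is by definition. TPH2, which sets no limit, had 208.6 (WT) and 180.4 CPM (FKO) in FEV-positive neurons. In SLC17A6-positive neurons it had 12.4 and 13.1 CPM. Among all kept cells 4 of the 8 were above the median gene in FKO over WT, and FEV had a log2 ratio of -0.80. In WT SLC17A6-positive neurons 4 of the 8 (GATA2, LMX1B, SLC6A4 and SLC18A2) were at 0, and in FKO 1 (GATA2) was. The 3 glutamatergic markers summed to 354 and 393 CPM in SLC17A6-positive neurons, led by SLC17A6, which defines the class, with SLC17A7 at 0 in WT. In FEV-positive neurons they summed to 175.6 and 126.7 CPM, nearly all from SLC17A8. The EBF levels by class thus come from neurons that differ in their transmitter genes, in part by definition, and the SLC17A6-positive values rest on few cells.

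EBF1 (ENSG00000164330, chromosome 5), EBF2 (ENSG00000221818), EBF3 (ENSG00000108001, chromosome 10) and EBF4 (ENSG00000088881, chromosome 20) span 404, 204, 129 and 67.2 kb in GENCODE 29 on GRCh38. Promoters for 3 of the 4 were in the RefSeq table for GRCh38.p14. The 250 bases before the start of each are shown because EBF proteins bind a palindromic core of CCCNNGGG, and the members differed in how many such cores they carry there. Capitals mark that core or the E-box CAGCTG of bHLH proteins. The EBF1 window (chr5:159097957-159098206, minus strand) lies inside the EBF1 gene and overlaps no exon, and the annotated gene starts further upstream. The EBF3 window (chr10:129964275-129964524, minus strand) and the EBF4 window (chr20:2692530-2692779, plus strand) lie in no annotated gene.
EBF1: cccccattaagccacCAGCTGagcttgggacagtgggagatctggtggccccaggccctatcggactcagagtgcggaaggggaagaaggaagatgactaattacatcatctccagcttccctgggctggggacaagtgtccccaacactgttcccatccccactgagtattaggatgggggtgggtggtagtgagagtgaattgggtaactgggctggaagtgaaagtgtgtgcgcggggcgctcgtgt
EBF3: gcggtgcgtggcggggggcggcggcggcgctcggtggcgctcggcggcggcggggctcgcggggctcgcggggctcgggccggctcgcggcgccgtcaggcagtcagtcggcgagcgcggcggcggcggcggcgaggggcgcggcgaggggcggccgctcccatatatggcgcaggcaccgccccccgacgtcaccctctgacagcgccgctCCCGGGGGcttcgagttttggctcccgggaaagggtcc
EBF4: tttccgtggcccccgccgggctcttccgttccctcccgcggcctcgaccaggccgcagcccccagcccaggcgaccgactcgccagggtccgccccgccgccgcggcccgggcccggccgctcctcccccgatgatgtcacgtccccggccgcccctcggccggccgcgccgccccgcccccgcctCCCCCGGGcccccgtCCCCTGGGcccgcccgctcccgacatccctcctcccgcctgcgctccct
On both strands, the EBF core had 0 matches in the EBF1 window, 1 in the EBF3 window and 2 in the EBF4 window. Among 35116 promoter windows of the same length, 17.1% held at least 1. The E-box was matched 1 time in the EBF1 window and in neither of the others, against 14% of all windows. The forkhead motif TGTTTAC (2.98% of windows) and the ETS motif CCGGAAG (8.52%) matched no letters in these 3 windows, and the matches found did not overlap. GC content was 57.2% for EBF1, 81.2% for EBF3 and 82.8% for EBF4, so the EBF1 window stood apart in base composition. A match describes letters and is not a binding site.

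Among all kept cells, each of the 4 genes had a higher pooled level in the library labelled FKO. EBF1 had 978 UMIs (12.8 CPM) in WT and 4340 UMIs (74.9 CPM) in FKO. Its log2 ratio was 2.55 (2.45 to 2.65), a 5.87-fold difference. The median gene itself had a log2 ratio of 0.48 among the 9680 genes with at least 10 CPM in either library, so differences are also given relative to it. On that scale EBF1 was 2.08 higher in FKO, and 63 genes had a larger ratio.

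EBF4, the member with the smallest difference, had 583 UMIs (7.61 CPM) in WT and 828 UMIs (14.3 CPM) in FKO. Its log2 ratio was 0.91 (0.75 to 1.06), or 0.43 relative to the median gene, and 2493 genes had a larger one. EBF3 had 217 UMIs (2.83 CPM) in WT and 455 UMIs (7.85 CPM) in FKO, which gave a log2 ratio of 1.47 (1.23 to 1.71), 0.99 above that of the median gene. EBF2 was the least counted member in both libraries, with 8 UMIs (0.104 CPM) in WT and 102 UMIs (1.76 CPM) in FKO. Its log2 ratio was 4.07 (3.04 to 5.32), with a wide interval set by the 8 WT UMIs. Only EBF1 and EBF4 reached 10 CPM in either library. Of these 2 members, 1 (EBF1) was at least 2-fold above the median gene, beside 5.72% of all genes tested, and nothing is read from this count because the choice of members used the contrast.

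Where these UMIs lay differed between the members. FEV-positive neurons held 93.3% of all kept UMIs in WT and 80.2% in FKO. They held 95.2% of the EBF4 UMIs in WT and 85.6% in FKO. For EBF1 they held 83.5% and 74.6%. The EBF3 UMIs were spread more widely, with 34.6% (WT) and 25.5% (FKO) in FEV-positive neurons. SLC17A6-positive neurons held 13.8% and 21.5% of the EBF3 UMIs, although they were only 0.226% and 0.917% of the cells. The neurons below both marker limits (the remaining neurons) held the largest share of them, 44.2% and 34.7%. In FKO the SLC17A6-positive neurons also held 35.3% of the EBF2 UMIs, beside 30.4% in the remaining and 16.7% in FEV-positive neurons. So the share of EBF4 in FEV-positive neurons was close to that of all UMIs in WT and above it in FKO, and the shares of EBF1, EBF3 and, in FKO, EBF2 were below it.

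**Figure D1:**
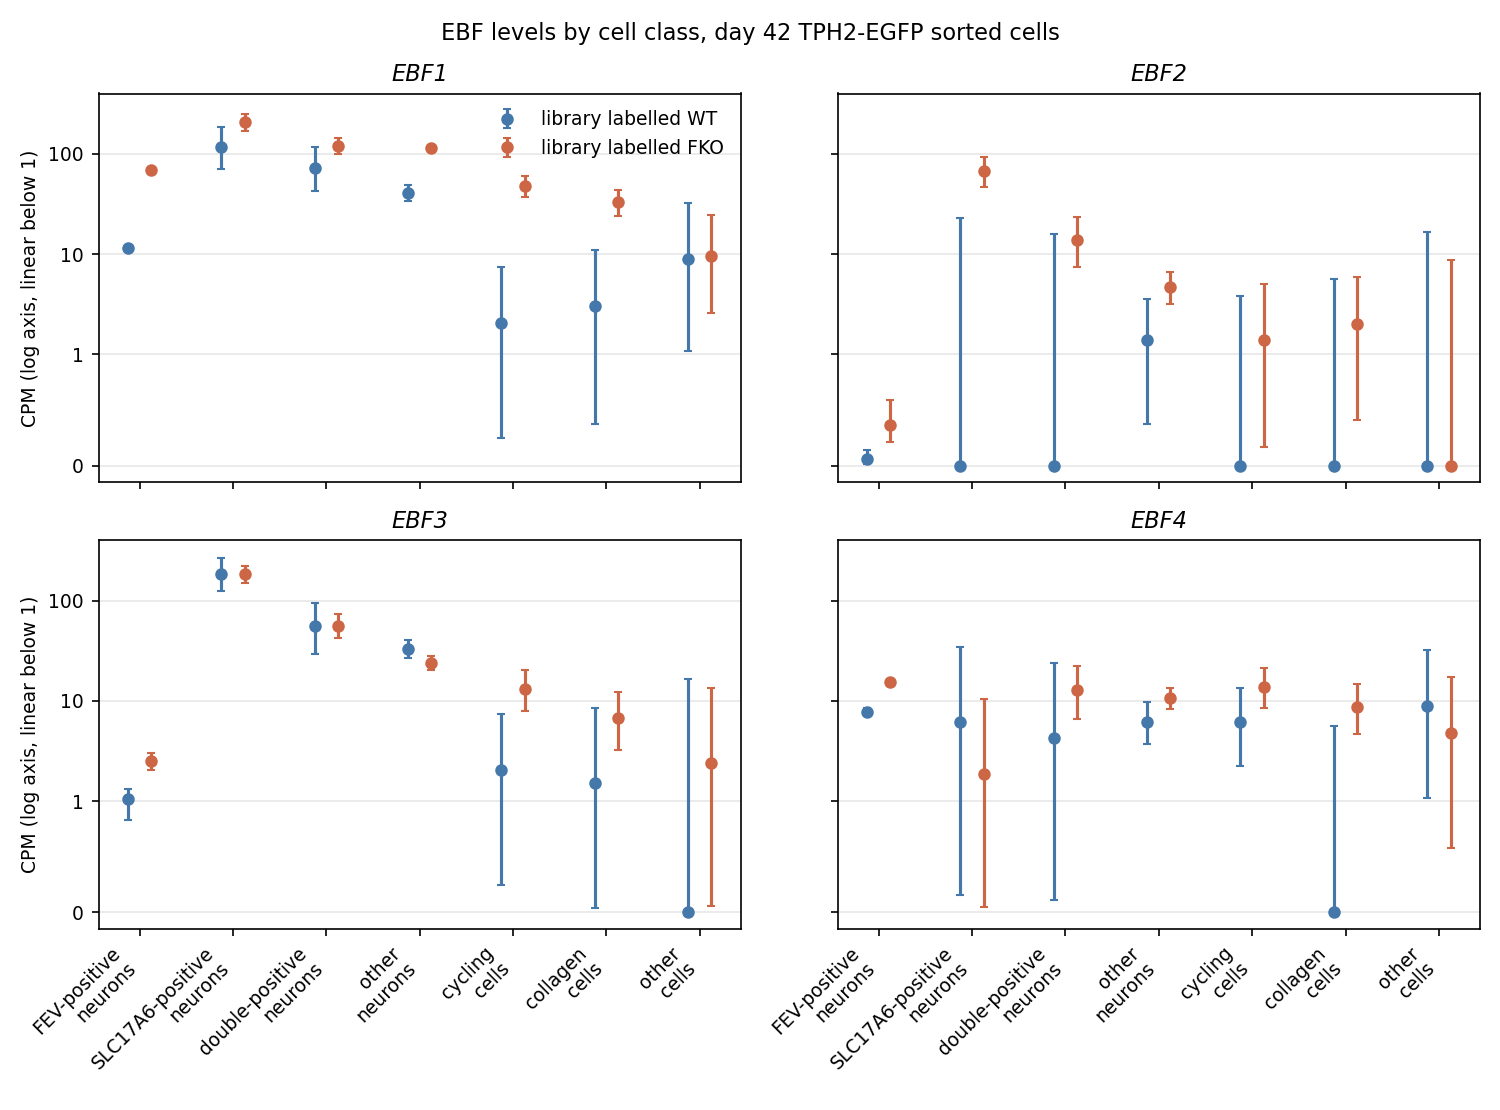
Pooled CPM of each EBF gene (vertical axis, logarithmic above 1 and linear below) in 7 classes of kept cells (horizontal axis) for the libraries labelled WT (blue) and FKO (orange). Points are pooled levels and bars exact 95% Poisson intervals. EBF3 reaches 186.5 CPM in WT and 183 CPM in FKO SLC17A6-positive neurons and stays below 3 CPM in FEV-positive neurons.

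In FEV-positive neurons EBF1 was the member with the largest difference among those that passed the 10 CPM limit. It had 817 UMIs (11.4 CPM) in the WT library and 3237 UMIs (69.6 CPM) in the FKO library. The log2 ratio was 2.61 (2.49 to 2.72), 2.14 above the median gene of this class (0.47), and 37 of 9550 genes had a larger ratio. An EBF1 UMI was seen in 10.3% (9.50 to 11.2) of WT cells at a median of 12529 UMIs and in 30.5% (29.2 to 31.7) of FKO cells at a median of 7156 UMIs. The share was thus higher in the library with the lower depth. Thinning to 2000 UMIs per cell left shares of 2.05% and 11.3%, with 3 WT and 5 FKO cells too shallow to enter. The FKO cells included 853 with 1 EBF1 UMI, 379 with 2 and 415 with at least 3, and the WT cells 374, 115 and 58.

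No class is known to lack EBF1, so kept cells with few neuron, cycling or collagen markers were taken for comparison. There an EBF1 UMI was seen in 2 of 47 WT cells (4.26%, median 2187 UMIs) and 4 of 64 FKO cells (6.25%, median 6826 UMIs), and after thinning in 0 of 26 and 1 of 50. WT cycling cells, at a median of 23374 UMIs, had one in 2 of 43 cells (4.65%). The share in FKO FEV-positive neurons lay above that of the cells with few markers (1.73 to 15.2), and in WT these intervals overlapped. FKO cycling cells had an EBF1 UMI in 27.2% (18.4 to 37.5) of cells at a median of 12202 UMIs, a share close to that of FEV-positive neurons, and 7.69% after thinning. The FKO cycling cells had 47.5 CPM of EBF1 and the FKO collagen cells 32.7 CPM, and whether free RNA contributed to these was not tested.

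EBF4 was also higher in FKO in FEV-positive neurons, by less. Its 555 WT UMIs (7.77 CPM) and 709 FKO UMIs (15.2 CPM) gave a log2 ratio of 0.97 (0.81 to 1.14), which is 0.50 against the median gene. An EBF4 UMI was seen in 9.74% of WT and 12.1% of FKO cells, or 1.56% and 3.39% after thinning. Nearly all of these cells had a single EBF4 UMI, 481 in WT and 605 in FKO. By comparison, 4.26% (WT) and 3.13% (FKO) of the cells with few markers had one, at the depths given for EBF1. Of the 2 members past 10 CPM in this class, 1 (EBF1) was at least 2-fold above the median gene, beside 5.84% of all genes tested, a count that also supports nothing.

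EBF3 and EBF2 were near the limit of detection in FEV-positive neurons. EBF3 had 75 WT UMIs (1.05 CPM) and 116 FKO UMIs (2.49 CPM), a log2 ratio of 1.25 (0.82 to 1.69), seen in 0.867% and 1.26% of cells (0.151% and 0.222% after thinning). EBF2 had 4 WT UMIs in 3 cells and 17 FKO UMIs in 11 cells, a log2 ratio of 2.71 (1.09 to 4.74). These ratios moved with the settings: with 5 FEV and 3 SLC17A6 UMIs as limits the EBF3 value was 2.20 and the EBF2 value 5.35. With limits of 1 and 1 the EBF3 value was 0.78. Thinning with cells classed anew, from 1 FEV or 1 SLC17A6 UMI after thinning, left 4701 WT and 5153 FKO cells in the class. It gave 0.77 (-0.55 to 2.22) for EBF3 and 0.28 (-2.28 to 3.05) for EBF2, from 4 FKO and 3 WT UMIs. A difference was not detectable there for either.

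In SLC17A6-positive neurons the picture was another one, with EBF3 and EBF1 both high in each library. EBF3 had 30 UMIs in the 13 WT cells (186.5 CPM, 126 to 266) and 98 UMIs in the 64 FKO cells (183 CPM, 149 to 223). The log2 ratio was -0.03 (-0.63 to 0.62), or -0.31 relative to the median gene of 0.28, so no difference between the libraries was detectable at this depth. An EBF3 UMI was seen in 7 of 13 WT cells (53.9%, median 10983 UMIs) and 35 of 64 FKO cells (54.7%, median 6846 UMIs). After thinning the shares were 23.1% and 21.0%.

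EBF1 had 19 WT UMIs (118 CPM, 71.1 to 185) and 111 FKO UMIs (207.5 CPM, 171 to 250) in this class. Its log2 ratio was 0.81 (0.10 to 1.60), or 0.53 (-0.18 to 1.31) relative to the median gene, a smaller value than the 2.61 in FEV-positive neurons. When cells were thinned and classed anew, which left 10 WT and 46 FKO cells, the log2 ratio was 0.21 (-1.59 to 2.63). With limits of 1 and 1 it was 0.73 (-0.13 to 1.73). Both intervals also included 0, so a difference in this class was not clear. An EBF1 UMI was seen in 9 of 13 WT cells (69.2%) and 43 of 64 FKO cells (67.2%), and after thinning in 30.8% and 22.6%. The shares showed no higher detection in FKO.

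EBF2 had no UMI in the 13 WT cells, which allows up to 18.7 CPM and up to 23.1% of cells with a UMI, taken as 3 UMIs and 3 cells. In FKO it had 36 UMIs (67.3 CPM, 47.1 to 93.2) in 12 of 64 cells (18.8%, or 14.5% after thinning). It was at least 3.61-fold higher in FKO against a floor of 3 UMIs over the WT class, a log2 ratio of 1.85 whose counting interval begins at 1.48, and the share seen in FKO lay within what the WT zero allows. With limits of 1 FEV and 1 SLC17A6 UMI, which left 5 WT cells, the bound fell to a log2 ratio of 0.35. EBF4 had 1 UMI in each library, so no ratio is given. Of the 3 members past 10 CPM, 1 (EBF2, by its bound) was at least 2-fold above the median gene, beside 14.8% of all genes tested. It passed only through FKO, where it is high, so this count supports nothing.

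**Figure D2:**
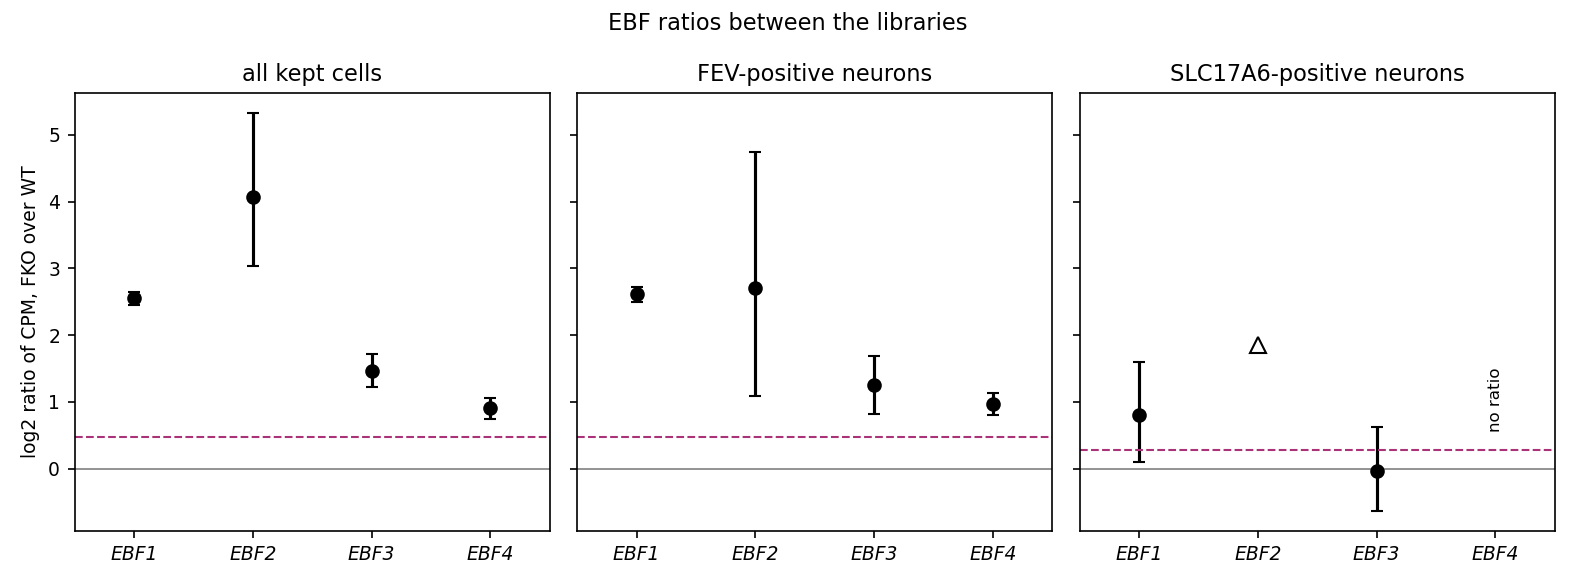
Log2 ratio of pooled CPM, FKO over WT (vertical axis), for each EBF gene in all kept cells, FEV-positive neurons and SLC17A6-positive neurons. Points carry exact 95% conditional intervals, the open triangle is a lower bound against a floor of 3 UMIs, the dashed line is the median gene and the grey line marks equal levels. EBF1 lies at 2.61 in FEV-positive neurons and at 0.81 in SLC17A6-positive neurons.

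Set against FEV-positive neurons of the same library, SLC17A6-positive neurons had far more EBF3. The EBF3 log2 ratio between the classes was 7.47 (6.81 to 8.10) in WT and 6.20 (5.80 to 6.60) in FKO, with 10 of 9235 and 19 of 10114 genes showing a larger one. EBF1 was higher in SLC17A6-positive neurons by 3.37 (2.63 to 4.02) in WT and 1.58 (1.29 to 1.85) in FKO. The EBF1 gap between the classes was therefore narrower in FKO, where FEV-positive neurons held more EBF1, and this difference was not tested. EBF2 had a ratio of 7.52 (6.66 to 8.45) in FKO, with 6 genes above it, and none can be given in WT with 0 against 4 UMIs.

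EBF4 ran the other way in FKO, with 1.87 CPM (1 UMI) in SLC17A6-positive and 15.2 CPM in FEV-positive neurons, a log2 ratio of -3.03 (-8.33 to -0.54). This direction turned to 0.42 when cells were thinned and classed anew, from 2 UMIs in 46 cells. In WT the EBF4 ratio was -0.32 (-5.63 to 2.16), also from 1 UMI. In WT both members past 10 CPM (EBF1 and EBF3) were at least 2-fold above the median gene, beside 13.8% of all genes tested. In FKO 3 of the 4 were, beside 5.71%. Since EBF2 and EBF3 passed that limit only through the class where they are high, these counts support nothing.

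Across all 7 classes EBF1 and EBF3 kept SLC17A6-positive neurons at the top of their order. In FKO the EBF1 level fell from 207.5 CPM there to 120.1 CPM (99.0 to 144) in double-positive neurons, which passed both marker limits, and 114 CPM (106 to 123) in the remaining neurons. These last values did not differ beyond their intervals. FEV-positive neurons followed at 69.6 CPM, then cycling cells, collagen cells and the cells with few markers at 9.55 CPM. In WT the order of the neuron classes was alike, with 72.5 CPM (42.2 to 116) in double-positive and 40.9 CPM (33.9 to 49.0) in the remaining neurons, intervals that overlap. The WT cycling and collagen cells had 2 EBF1 UMIs each.

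EBF3 had 55.5 CPM (WT) and 56.3 CPM (FKO) in double-positive neurons, and 33.0 CPM (26.8 to 40.3) and 23.9 CPM (20.3 to 27.9) in the remaining neurons. It was thus the only member with a lower point value in FKO in any neuron class holding over 100 cells. EBF2 in FKO had 13.8 CPM (7.36 to 23.6) in double-positive and 4.68 CPM (3.18 to 6.65) in the remaining neurons. EBF4 in FKO lay between 8.68 and 15.2 CPM in 5 of the 7 classes, and only the remaining neurons and SLC17A6-positive neurons had intervals wholly below that of FEV-positive neurons. The double-positive neurons were 12 WT and 48 FKO cells with medians of 19004 and 17988 UMIs. Their median doublet scores were 0.0609 and 0.126, beside 0.0895 and 0.0837 in FEV-positive neurons, and whether they hold pairs of cells was not tested.

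Neurons close to the limits of 3 FEV and 2 SLC17A6 UMIs were also read. WT neurons 1 UMI under the FEV limit (107 cells) had 32.2 CPM of EBF1 and those at the limit (75 cells) 38.4 CPM. In FKO the 368 neurons under it had 99.9 CPM and the 430 at it 82.8 CPM. EBF3 near the FEV limit was 23.7 and 20.9 CPM in WT and 11.5 and 2.75 CPM in FKO. FKO neurons 1 UMI under the SLC17A6 limit had 117 CPM of EBF3 in 50 cells, and those at the limit 209 CPM in 33 cells. In WT the values were 82.9 CPM in 12 cells and 78.5 CPM in 5. Neurons at the FEV limit therefore had a higher EBF1 level than the whole class in both libraries, and a higher EBF3 level in WT.

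**Figure D3:**
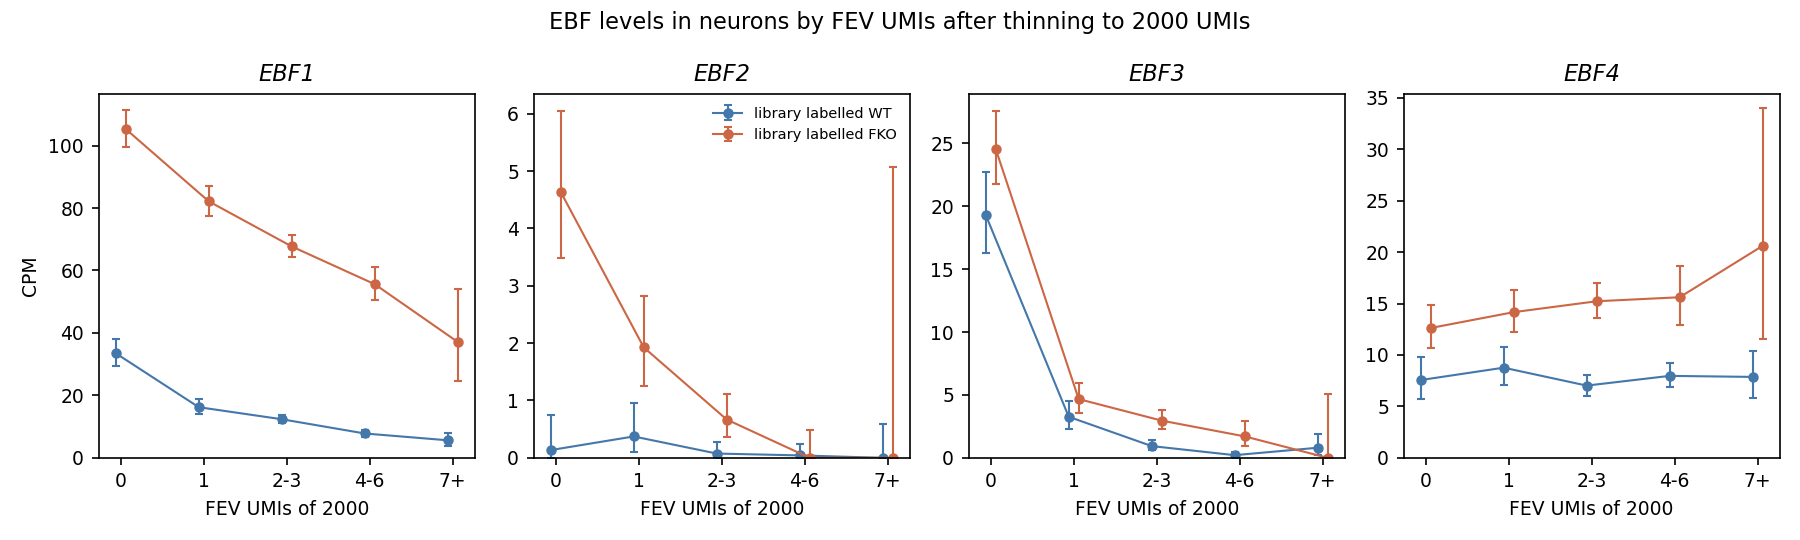
Pooled CPM of each EBF gene (vertical axes) in all neurons grouped by their FEV UMIs after thinning to 2000 UMIs (horizontal axes) for the libraries labelled WT (blue) and FKO (orange). Bars are exact 95% Poisson intervals, and the levels use all UMIs. EBF1 falls from 33.5 to 5.62 CPM in WT and from 105 to 37.1 CPM in FKO.

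Along the FEV gradient the point value of EBF1 fell at each step in both libraries. With 0, 1, 2 to 3, 4 to 6 and at least 7 FEV UMIs of 2000, EBF1 was 33.5, 16.2, 12.4, 7.80 and 5.62 CPM in WT. The FKO values were 105, 82.1, 67.7, 55.6 and 37.1 CPM. At the last step the intervals overlapped in WT (6.71 to 9.01 and 3.91 to 7.81). They also did in FKO (50.4 to 61.2 and 24.5 to 54.0). Median depth was near constant along the bands, between 12045 and 12742 UMIs in WT and between 6615 and 7031 UMIs in FKO. At every FEV level EBF1 was higher in FKO, and the lowest FKO value lay above the highest WT value with intervals that overlap (24.5 to 54.0 and 29.4 to 37.9).

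EBF3 fell more steeply, from 19.3 CPM at 0 FEV UMIs to 0.934 CPM at 2 to 3 in WT and from 24.6 to 2.96 CPM in FKO. No EBF3 UMI was seen in the 90 FKO neurons with at least 7 FEV UMIs. EBF4 showed no such fall, with 7.02 to 8.76 CPM in WT and 12.6 to 20.6 CPM in FKO. TPH2, in the same bands, went from 115 to 258 CPM in WT. In FKO it was 120 CPM at 0 FEV UMIs, 177.5 CPM at 1 and 182 to 183 CPM above, so it was nearly level where EBF1 still fell. SLC17A6 went from 10.7 CPM at 0 FEV UMIs to 0.336 CPM at 2 to 3 in WT and from 22.4 to 3.39 CPM in FKO. Neurons with SLC17A6 were thus not spread evenly over the bands, and their part in the fall of EBF1 and EBF3 was not tested.

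Inside the FEV-positive class, EBF1 was uneven. FEV-positive neurons were split by a UMI of 4 genes after thinning, genes chosen after their values were seen. With ONECUT2, a cut-homeodomain factor of young neurons, EBF1 was 35.5 CPM (31.5 to 39.8) in 586 WT cells, and without it 8.33 CPM (7.63 to 9.07) in 4720. In FKO the values were 116 CPM (111 to 121) in 2074 cells and 38.0 CPM (35.7 to 40.4) in 3329. FKO neurons without an ONECUT2 UMI had about the EBF1 level of WT neurons with one. The ONECUT2-positive share itself differed between the libraries, and its part in the EBF1 difference was not tested.

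With SLC17A8, the vesicular glutamate transporter of some serotonin neurons (VGLUT3), EBF1 was lower. It was 4.15 CPM (3.10 to 5.44) with and 13.0 CPM (12.1 to 13.9) without a SLC17A8 UMI in WT. In FKO it was 18.8 CPM (15.1 to 23.1) with and 75.3 CPM (72.7 to 78.0) without. TPH2 gave the same direction with 6.23 against 13.6 CPM in WT and a smaller gap, 62.0 against 72.4 CPM, in FKO. EBF1 was therefore lowest in neurons with SLC17A8 among these 4 splits in both libraries.

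FOXA2 UMIs were seen after thinning in 31 WT and 86 FKO neurons of the class. EBF1 was 23.8 CPM (10.9 to 45.3) in the former against 11.4 CPM in the WT neurons without FOXA2, intervals that overlap. In FKO it was 63.8 CPM (48.3 to 82.7) with and 69.7 CPM without. The 86 FKO neurons with FOXA2 held 7 EBF2 UMIs (7.83 CPM, 3.15 to 16.1), against 0.219 CPM in the 5317 without. They also held 8 EBF3 UMIs (8.95 CPM, 3.87 to 17.6), against 2.37 CPM (1.94 to 2.86) without. EBF4 was lower with TPH2 in FKO, at 12.3 CPM (10.45 to 14.4) against 16.3 CPM (15.0 to 17.75), and not in WT, at 7.77 against 7.76 CPM. In the other splits its intervals with and without the gene overlapped.

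**Figure D4:**
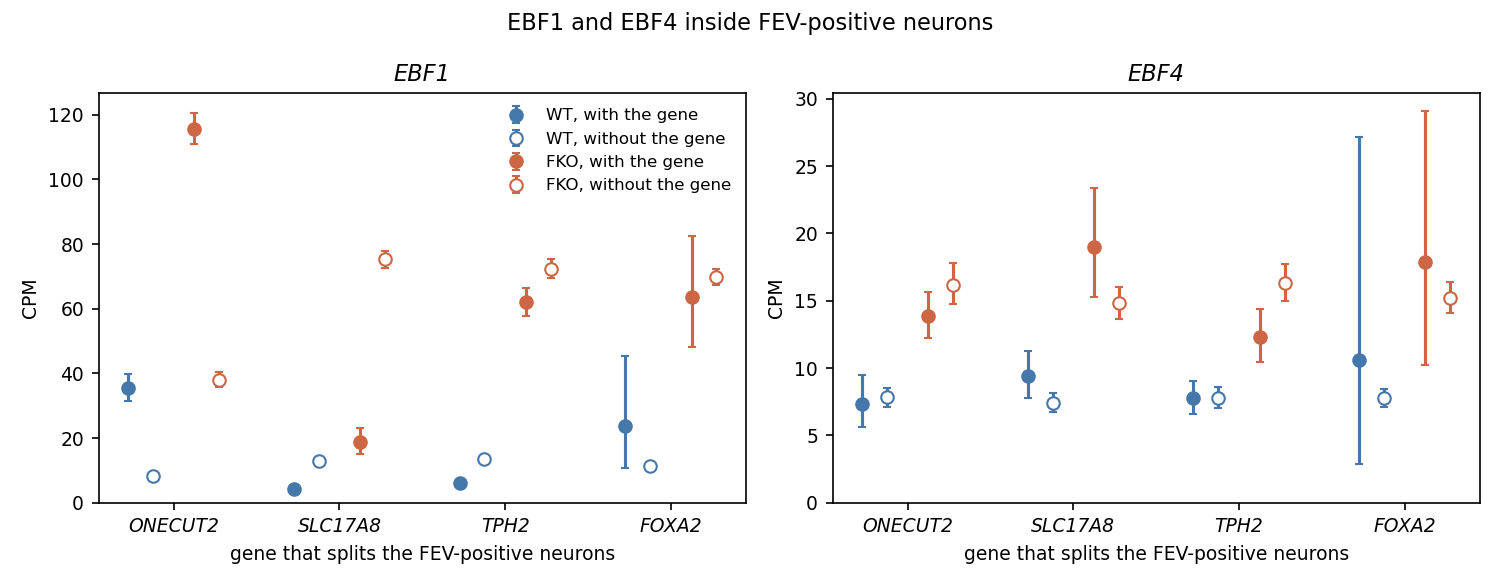
Pooled CPM of EBF1 and EBF4 (vertical axes) in FEV-positive neurons with (filled) and without (open) a UMI of the gene on the horizontal axis after thinning to 2000 UMIs, for the libraries labelled WT (blue) and FKO (orange). Bars are exact 95% Poisson intervals. EBF1 is higher with ONECUT2 and lower with SLC17A8 in both libraries.

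FKO neurons with EBF2 or EBF3 had EBF1 more often than the rest, although few neurons with EBF1 had either. Among FKO neurons thinned to 2000 UMIs, 20 of the 73 with an EBF3 UMI also had EBF1 (27.4%, 17.6 to 39.1), against 12.5% of those without EBF3. Of the 22 with EBF2, 9 had EBF1 (40.9%) and 7 had EBF3 (31.8%, 13.9 to 54.9), against 12.5% and 1.01% of the rest. Of the 831 FKO neurons with EBF1, 2.41% had EBF3 and 1.08% had EBF2. In WT 3 of 23 neurons with EBF3 had EBF1 (13.0%, 2.78 to 33.6), against 2.33% of the rest. EBF4 cells differed from this, with EBF1 in 11.2% (7.21 to 16.3) of 206 FKO neurons with EBF4 and 12.7% without.

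With all UMIs, each of the 7 WT SLC17A6-positive neurons with EBF3 also had EBF1 (59.0 to 100%), against 2 of the 6 without EBF3 (33.3%). This WT contrast comes from only 13 cells and was not tested. In FKO 25 of the 35 with EBF3 had EBF1 (71.4%), against 62.1% of the 29 without EBF3. Of the 12 FKO cells of this class with EBF2, 11 had EBF1 (91.7%, 61.5 to 99.8) and 7 had EBF3 (58.3%, 27.7 to 84.8), against 61.5% and 53.9% of the 52 without. These FKO shares within the class were not apart beyond their intervals. All 3 genes were seen in 6 of 64 FKO cells (9.38%) and none of them in 11 (17.2%). In FEV-positive neurons 2 or more of the 3 were seen in few cells: 2 in 16 WT and 38 FKO cells, and 3 in 1 and 2.

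The genes most like EBF1 were ranked by the log2 ratio of levels in neurons with an EBF1 UMI over neurons without one, taking the smaller of the libraries among 5697 genes. ONECUT3 came first, with 1.91 in WT and 1.43 in FKO (72.8 against 27.1 CPM). ENSG00000259436, which has no symbol in the files, was next with 1.78 and 1.33. ONECUT1 (1.86 and 1.21), ONECUT2 (1.96 and 1.07), the ephrin receptor EPHA7 (1.18 and 0.93) and the cadherin CDH8 (1.79 and 0.92) completed the first 6. All 3 ONECUT genes stood among them, from 133 WT and 831 FKO neurons with EBF1.

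EBF3 had other companions and larger ratios, from 23 WT and 73 FKO neurons. Among the genes with the largest, NRN1, which encodes neuritin, had 5.10 in WT and 4.51 in FKO, and MAB21L2 4.51 and 4.35. SLC17A6 had 49.0 against 1.41 CPM in WT and 129.8 against 6.53 CPM in FKO. MAB21L1 (4.64 and 4.28) and ENSG00000250049 (4.92 and 4.01) were also among them. EBF2 was not ranked because only 2 WT neurons had a UMI after thinning.

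Neurons grouped by other identity genes, after thinning, placed the members further. The 14 FKO neurons with POU4F1, a factor of sensory-type neurons, had 245 CPM of EBF2 (157 to 364) and 286 CPM of EBF3 (189.8 to 413). The 16 with TLX3, a selector of glutamatergic neurons, had 213 CPM of EBF2 (141 to 310) and 86.9 CPM of EBF3. LHX9 neurons in FKO (66 cells) had 177 CPM of EBF1 and 123 CPM of EBF3, with 13.9 CPM of EBF2. EBF2 was thus highest in the cells with POU4F1 or TLX3 among the groups of at least 10 cells, and WT had only 2 and 0 such cells.

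LHX5 neurons had 56.5 CPM of EBF1 in 16 WT cells and 184.5 CPM in 23 FKO cells. Neurons with GAD1, an enzyme of GABA synthesis, had 42.2 CPM (19.3 to 80.1) of EBF3 in 20 WT cells and 72.8 CPM (44.5 to 112) in 29 FKO cells. These GAD1 groups did not leave out SLC17A6-positive neurons, which held 0 GAD1 UMIs in WT and 9 in FKO. In WT the EBF3 UMIs of GAD1 neurons thus lay outside that class, and in FKO the overlap was not counted. Neurons with GAD2 (10 WT and 17 FKO cells) had no EBF3 UMI, which allows up to 30.5 and 23.3 CPM. SLC6A4, the serotonin transporter, marked 230 WT neurons with 6.92 CPM of EBF1 and 514 FKO neurons with 47.8 CPM.

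The genes that work with EBF proteins were also read. ZNF521 and ZNF423 encode zinc finger proteins that bind EBF1 and inhibit it. ZNF521 had 37.9 CPM in WT and 104 CPM in FKO among all kept cells, a log2 ratio of 1.46 (1.39 to 1.52), which is 0.98 against the median gene. ZNF423 had 7.62 and 15.0 CPM and a ratio of 0.98 (0.83 to 1.13), or 0.51 relative to it. Neither rose with the class as EBF3 did: in FKO the SLC17A6-positive over FEV-positive log2 ratio was 0.08 (-0.30 to 0.45) for ZNF521 and -0.16 (-1.48 to 0.90) for ZNF423.

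Proneural bHLH genes act before EBF genes, and neuronal bHLH genes were read beside them. Among all kept cells NHLH1 had 0.731 CPM in WT and 3.62 CPM in FKO, a log2 ratio of 2.31 (1.88 to 2.76), while NHLH2 had 5.86 and 4.14 CPM and a ratio of -0.50 (-0.73 to -0.27). NEUROD4 had 71 UMIs in FKO and 0 in WT, NEUROG3 and NEUROD6 had 4 and 2 in FKO and 0 in WT, and ATOH1 was at 0 in both. In FKO SLC17A6-positive neurons NHLH1 had 39.3 CPM from 21 UMIs against 2.04 CPM in FEV-positive neurons, and NEUROD4 11.2 CPM from 6 UMIs against 0.258 CPM. In WT SLC17A6-positive neurons both were at 0.

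The 22 homeodomain genes of neuronal identity summed to 213 CPM in WT and 739.7 CPM in FKO. Only 6 passed 10 CPM among all kept cells, all 6 above the median gene and 4 at least 2-fold above it, beside 5.72% of all genes tested. LHX1 and ONECUT3 passed only through their FKO level, so this count supports nothing. The 4 were LHX1 (2.46), ONECUT1 (2.36), ONECUT2 (2.25) and ONECUT3 (2.0), and the others LMX1B (1.11) and EN1 (1.17). LHX9 had 22 UMIs (137 CPM) in WT SLC17A6-positive neurons against 4 UMIs in FEV-positive neurons.

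Of 10 migration and axon guidance genes, 7 passed 10 CPM, 6 were above the median gene and 3 at least 2-fold above it, beside 5.72% of all genes tested. These were CNTN2 (2.30, past 10 CPM only in FKO, so this count supports nothing either), ROBO2 (2.20) and NRP2 (1.59), and the list summed to 503 CPM in WT and 844 CPM in FKO. CXCR4, the chemokine receptor of migrating cells, was lower in FKO, with 230.0 CPM in WT, 119.6 CPM in FKO and a log2 ratio of -0.94. CNTN2, a contactin of growing axons, also differed between classes in FKO, with 123 CPM in SLC17A6-positive and 9.27 CPM in FEV-positive neurons.

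EBF proteins also act in B cells, fat and olfactory neurons, and the genes of the first 2 were near 0. The 7 B cell genes summed to 0.457 CPM in WT and 0.931 CPM in FKO, and the 6 adipocyte genes to 1.08 and 2.81 CPM, with none past 10 CPM. Of 5 genes of olfactory receptor neurons, GNAL (43.0 and 128 CPM) and ADCY3 (4.49 and 11.1 CPM) passed, and OMP and CNGA2 were at 0 in both libraries and CNGA4 in WT. GNAL, a G protein subunit also made in other neurons, was 1.10 above the median gene. The EBF genes were thus read from cells with almost no counts of the listed B cell and fat genes.

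Markers of other cells moved between the libraries beside EBF1. The 8 mesenchymal markers summed to 39.0 CPM in WT, led by LUM, and 238 CPM in FKO, led by COL1A2, with none at 0 and 3 of the 5 that passed at least 2-fold above the median gene, beside 5.72% of all genes tested. Of these 3, COL1A1 and COL1A2 passed only through their FKO level, so nothing is read from this count. The 5 floor plate markers summed to 47.5 and 64.8 CPM, led by SPON1, with FOXA2 (2.37) and NTN1 (1.12) higher in FKO and SHH and CORIN lower. The 4 cycling markers summed to 42.6 and 61.2 CPM, led by CENPF, with MKI67 higher (1.57) and UBE2C lower (-0.92) in FKO. GABAergic markers (3 genes, 2.22 and 4.47 CPM, led by GAD1) and cholinergic or visceral motor markers (6 genes, 6.67 and 3.48 CPM, TBX20 at 0 in FKO) were low. The 5 neural progenitor markers summed to 980.4 and 1131 CPM, led by VIM (0.36), while SOX2 (-0.33), NES (-0.41) and FABP7 (-0.21) were lower in FKO and 0 of the 4 that passed were above the median gene. The 6 neuron markers summed to 8113 and 11953 CPM, led by STMN2. Their part in the EBF differences was not tested.

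**Figure D5:**
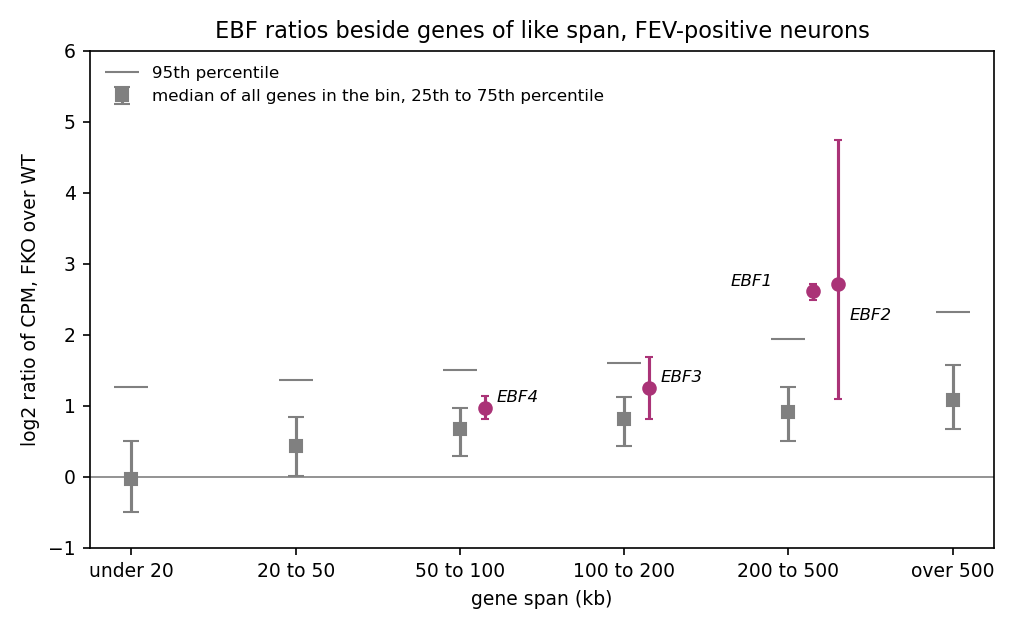
Log2 ratio of pooled CPM, FKO over WT, in FEV-positive neurons (vertical axis) by gene span in kb (horizontal axis). Grey squares are bin medians with bars from the 25th to the 75th percentile, grey dashes 95th percentiles, and purple points the EBF genes with exact 95% intervals. EBF1 at 2.61 lies above the 95th percentile of its bin, 1.94.

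Ratios between the libraries rose with gene span, which bears on long genes such as EBF1. In FEV-positive neurons the median log2 ratio was -0.03 for genes under 20 kb, 0.67 from 50 to 100 kb, 0.91 from 200 to 500 kb and 1.08 over 500 kb. Spans were known for 99.5% of the genes. EBF1 at 2.61 lay above all but 8 of the 677 genes of 200 to 500 kb. EBF4 at 0.97 stood at the upper quartile of 0.97 in its bin of 50 to 100 kb, and EBF3 at 1.25 lay between the upper quartile (1.12) and the 95th percentile (1.60) of its own. The members were chosen with these ratios known, so their standing supports nothing, and the part of span was not tested.

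If reads from introns were counted, which was not stated, levels of the members may depend on gene span. Per 100 kb of gene span, EBF4 had 11.6 CPM and EBF1 2.83 CPM in WT FEV-positive neurons, and 22.7 and 17.2 CPM in FKO. On the same scale EBF3 led in SLC17A6-positive neurons, with 145 CPM in WT and 142.5 CPM in FKO, beside 29.3 and 51.4 CPM for EBF1. Without the scale the order turned in FEV-positive neurons, with EBF1 above EBF4 (11.4 against 7.77 CPM in WT, 69.6 against 15.2 CPM in FKO), and in FKO SLC17A6-positive neurons, with EBF1 at 207.5 and EBF3 at 183 CPM. No order of the members is therefore read from either scale.

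Within FEV-positive neurons of the FKO library, EBF1 fell with the mitochondrial share, from 82.0 CPM (78.2 to 85.9) at up to 5% to 61.2 CPM at 5 to 7.5% and 45.1 CPM (38.3 to 52.8) at 7.5 to 10%. In WT the same bands had 6.62 CPM (3.99 to 10.3), 11.8 CPM and 11.5 CPM. The library difference in EBF1 was thus present in each band and smallest in the last. With at most 5% mitochondrial UMIs its log2 ratio was 3.63, from 252 WT and 2341 FKO cells. EBF4 changed little along the bands, with 7.16 to 8.19 CPM in WT and 13.8 to 16.7 CPM in FKO.

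By depth, EBF1 was steady above 5000 UMIs and EBF3 was not. From 5000 to 10000, 10000 to 20000 and over 20000 UMIs per cell, EBF1 was 12.01, 11.3 and 11.6 CPM in WT FEV-positive neurons and 71.0, 68.6 and 76.2 CPM in FKO, with 52.3 CPM in FKO cells below 5000 UMIs. EBF3 went from 0.211 to 0.673 and 3.08 CPM in WT and from 0.709 to 3.40 and 8.88 CPM in FKO. Of the 75 WT EBF3 UMIs of the class, 39 came from 497 cells over 20000 UMIs, and of the 116 FKO UMIs, 47 came from 190 such cells. A further 48 FKO UMIs came from 1064 cells of 10000 to 20000 UMIs. Below 5000 UMIs EBF3 rested on 1 WT UMI and 4 FKO UMIs. Above 5000 UMIs EBF3 in FEV-positive neurons rose with depth in both libraries, and whether some droplets that passed the doublet filter still held more than 1 cell was not tested.

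LINC02202, a long noncoding gene that starts next to EBF1 on the opposite strand, had 16 UMIs in WT and 82 UMIs in FKO among all kept cells. Its log2 ratio was 2.76 (1.98 to 3.63), with an interval that includes the 2.55 of EBF1. It was not on a list and was named after its value was seen.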

How the data were processed

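Single-cell RNA of EGFP-sorted cells was read in 1 library per group (WT and FKO, day 42). The authors aligned reads to GRCh38 and deposited raw UMI counts per gene and barcode, made with Cell Ranger (7.0 per the labels, 7.1.0 per the file headers). Whether introns were counted was not stated. Cell Ranger of this generation counts them by default, which favours long genes.

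Members were all features with the 4 EBF symbols. The members and lists were chosen with earlier results of these data known. Kept cells had at least 1000 UMIs, 500 genes and at most 10% mitochondrial UMIs. Barcodes with the highest Scrublet scores were left out at 0.8% per 1000 barcodes, which marked 977 WT and 620 FKO barcodes. Neurons needed UMIs of at least 3 of 6 markers (STMN2, ELAVL4, DCX, INA, SNAP25, SYT1), under 2 MKI67 and TOP2A UMIs and under 5 collagen UMIs. No clusters were used, and the classes were rebuilt here, not taken from the authors.

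Counts were summed per library and class, since cells are not replicates. Where one side was 0, it stood at 3 counts as a floor. Pairs with at most 3 on both sides have no ratio, nor do pairs where this floor lay above the level of the other side. Genes with at least 10 CPM on either side entered medians and counts. Named genes were the members, FOXA2, FEV, SLC17A6, TPH2, the listed genes and the 6 most like EBF1, EBF2 and EBF3, with at least 20 CPM in cells with the member. Some of these are not reported here. A minimum of 10 cells with the member for that ranking, and the bands and splits of FEV-positive neurons, were set after the counts were seen. Likewise LINC02202 was added then. Alternatives were mitochondrial limits of 5% and 20%, doublets kept, thinning to 2000 UMIs, at least 3000 UMIs, other marker limits, and scaling to the median gene. The thinning alternative also classed the cells anew, from 1 FEV or 1 SLC17A6 UMI after thinning. Shares of cells given after thinning kept the classes from all UMIs. The ratio and interval code was tested on simulated data. Python 3.11.15, scanpy 1.11.5, scipy 1.17.1, numpy 2.4.6 and matplotlib 3.10.9 were used.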

Additional observations from a re-analysis of the deposited data

Results flagged for a closer look

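Barcodes with 10 to 20% mitochondrial UMIs were left out of the levels and ratios of the report, apart from the alternative with a limit of 20%, and each EBF gene had a higher level in the library labelled FKO among them too. There were 2503 such barcodes in WT and 728 in FKO. The log2 ratio was 2.36 (2.05 to 2.66) for EBF1, from 9.67 CPM in WT and 49.6 CPM in FKO, and 0.84 (0.35 to 1.30) for EBF4, from 8.80 and 15.7 CPM. EBF3 had 2.77 (2.0 to 3.52), from 36 WT and 28 FKO UMIs. EBF2 had 0 UMIs in WT and 7 in FKO, a log2 ratio of at least 4.35 against a floor of 3 UMIs, whose counting interval begins at 3.66. The classes were mixed differently, with 2119 FEV-positive neurons among the WT barcodes and 155 among the FKO barcodes. Within that class EBF1 had 8.30 CPM in WT and 40.5 CPM in FKO, and EBF4 8.60 and 19.2 CPM. EBF3 had 0.851 and 3.04 CPM there, from 20 and 3 UMIs, and EBF2 had 0 UMIs in both. The part of this mix in the ratios was not tested.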

How the results depend on the processing

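Of 140 values recomputed under the alternatives, 110 stayed within the interval of the reported value, 28 moved beyond it and 2, whose reported interval did not include 0, changed sign. Lower bounds for EBF2 that lie under its reported value are among the 28, although such a bound does not exclude that value. Values that changed sign within an interval that includes 0 are among the 110: EBF3 between the libraries in SLC17A6-positive neurons (0.46 with at most 20% mitochondrial UMIs and 0.24 with limits of 1 and 1) and EBF4 between the classes in WT (1.38 with limits of 1 and 1). No paired analysis was possible because each group has 1 library and no test was made. With at most 5% mitochondrial UMIs, the FKO over WT log2 ratio in all kept cells was 3.12 for EBF1, 1.35 for EBF2 (a bound, with 0 WT UMIs) and 1.04 for EBF3, and in FEV-positive neurons 3.63 for EBF1 and 2.29 for EBF3. Scaled to the median gene, it was 2.08 for EBF1, 0.99 for EBF3 and 0.43 for EBF4 in all kept cells, and 2.14, 0.78 and 0.50 in FEV-positive neurons. Thinning to 2000 UMIs with cells classed anew gave 0.28 for EBF2 and 0.77 for EBF3 in FEV-positive neurons. Limits of 5 FEV and 3 SLC17A6 UMIs gave 5.35 and 2.20, and limits of 1 and 1 gave 0.78 for EBF3. In SLC17A6-positive neurons the bound for EBF2 was 0.35 with limits of 1 and 1. The SLC17A6-positive over FEV-positive ratio of EBF3 in WT was 8.20 with thinning, 6.52 with limits of 1 and 1 and 8.12 with 5 and 3, and in FKO 7.15 with thinning and 5.56 with 5 and 3. The 2 changed sign with thinning: EBF4 between the classes in FKO (0.42, from 2 UMIs) and FOXA2 between the libraries in SLC17A6-positive neurons (-1.20, from 4 FKO and 2 WT UMIs). The cause was not tested. No alternative moved EBF1 beyond its interval in SLC17A6-positive neurons (0.21 to 1.12, with intervals that include 0 for thinning, limits of 1 and 1 and scaling to the median gene) or between the classes (3.14 to 3.79 in WT, 1.34 to 1.69 in FKO). At most 5% mitochondrial UMIs left 0 WT SLC17A6-positive neurons, so their values could not be had, and EBF2 in FEV-positive neurons (13 against 0 UMIs) and EBF4 between the classes in FKO (0 UMIs in 25 cells) had none either. Under every alternative EBF2 had no ratio between the classes in WT. EBF2 in SLC17A6-positive neurons with thinning (10 against 0 UMIs), EBF4 between the classes in WT with thinning, and EBF4 between the libraries in SLC17A6-positive neurons under 6 alternatives had no value. The 13 WT cells of that class limit what depth can show there.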
